A study of Mus musculus with 24 samples.

Results

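Tep1, Parp2 and Apex1 are 3 genes that sit close together on mouse chromosome 14, out of 24557 genes in the count table. They were chosen with earlier results of these libraries in view, because their levels differed between the genotypes. The genotype values given here are therefore a description of what selected the genes and carry no test. The differences between polarization states were not themselves used in the choice, and those are tested. They share groups with the genotype differences, such as WT M0 for Tep1 and Ltb4r2-/- M2 for Parp2. Their p-values are therefore not independent of the choice.

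The study asked what loss of BLT2, the low-affinity receptor for leukotriene B4 that is encoded by Ltb4r2, does to macrophages. RNA was sequenced from bone marrow-derived macrophages (BMDMs), which are grown in culture from marrow precursors, of Ltb4r2-/- mice and of their WT littermates on a C57BL/6J background. The 6 groups of 4 libraries were Ltb4r2-/- M0, Ltb4r2-/- M1, Ltb4r2-/- M2, WT M0, WT M1 and WT M2. Marrow cells of both genotypes grew for 7 days in the growth factor M-CSF at 10 ng/ml. M1-like cells were next kept for 16 h with 10 ng/ml lipopolysaccharide (LPS) and 25 ng/ml interferon-γ, M2-like cells for 16 h with 10 ng/ml IL-4, and M0 cells had no polarizing cytokine. The deletion was global and not limited to macrophages, and the age and sex of the animals behind the libraries are not given in the sources used here.

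Tep1 encodes telomerase-associated protein 1, an RNA-binding protein found both in the telomerase complex and in vaults, which are large cytoplasmic ribonucleoprotein particles. Parp2 encodes a poly(ADP-ribose) polymerase that is switched on by breaks in DNA and attaches chains of ADP-ribose to proteins, which gathers repair factors at the break. Apex1 encodes the main endonuclease that cuts DNA at abasic sites, a central step of base excision repair in which glycosylases first remove the damaged base and polymerases and ligases then fill and seal the gap. Macrophages make reactive oxygen and nitrogen species when activated, and base excision repair handles much of the base damage that such species cause.

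All positions are on mm10. Parp2 lies on chromosome 14 from 50807841 to 50821301 on the plus strand, and its exons cover 3628 bp in 14 blocks. Tep1 lies from 50824059 to 50870560 on the minus strand, with 9568 bp of exons in 55 blocks, and its end is 2757 bp from the end of Parp2. Apex1 lies from 50924968 to 50927139 on the plus strand, with 1422 bp of exons in 4 blocks, 54.4 kb beyond Tep1. Ltb4r2 is on the same chromosome, and the starts of Tep1, Parp2 and Apex1 are 4937.4, 4953.6 and 4836.5 kb from its start. An effect of the deletion and a difference between the copies of chromosome 14 that carry the deleted and the intact locus cannot be told apart in this design.

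Parp2 and Apex1 each start next to a gene on the other strand, and the short stretches between those pairs are printed because they are the shared upstream regions of genes that differed between the groups. RefSeq (GRCm38.p6) has a promoter entry for Parp2 and for Apex1, and Tep1 is named only. The Parp2 stretch is chr14:50807768-50807840, the 73 bases between Rpph1, the RNA of RNase P, and the GENCODE start of Parp2. The Apex1 stretch is chr14:50924894-50924948, the 55 bases between Osgep, a tRNA-modifying enzyme, and the RefSeq start of Apex1. Both are on the plus strand, and capitals mark CCAAT, the E-box CACGTG and the GC box GGGCGG where they lie wholly within the stretch.
Parp2: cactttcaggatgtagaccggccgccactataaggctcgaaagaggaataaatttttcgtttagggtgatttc
Apex1: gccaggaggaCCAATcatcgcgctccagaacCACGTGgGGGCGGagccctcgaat

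In the whole window of 250 bases before the RefSeq start, Apex1 held CCAAT 45 to 41 bases, CACGTG 24 to 19 bases and GGGCGG 17 to 12 bases before the start. Parp2 held CACGTG 179 to 174 bases before its start, GGGCGG on the minus strand 153 to 148 bases before it, and GCATGCGC, the core bound by NRF1, 52 to 45 bases before it. The RefSeq start of Parp2 is 50807916, past its GENCODE start at 50807841, and none of its matches lies wholly within the printed stretch. The CACGTG lies within Rpph1, the GGGCGG crosses the edge of Rpph1, and the GCATGCGC lies past the GENCODE start. Of 27025 promoters of the same length, 34.5% held CCAAT, 32.9% GGGCGG, 6.05% CACGTG and 2.32% GCATGCGC. Both strands were searched, and no match overlapped another. TATAAA, the interferon sites TTCNNNGAA and GAAANNGAA, the kappa B sites GGACTTTCC and GGAATTTCC and the ETS core CCGGAAG had no match in either window, and were held by 13.0%, 7.18%, 7.16%, 0.281%, 0.292% and 7.05% of promoters. The windows of Parp2 and Apex1 were 58.8% and 64.8% G or C, against a median of 52.0% over all promoters. These letter matches are a description of the windows.

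The 24 libraries hold 427825 to 729580 counts each, over 5933 to 7315 genes with a count, and Actb, usually among the most abundant mRNAs, had 30 to 133 counts in a library. The libraries are labelled strand-specific and no source used here gives the strand setting with which HTSeq made the counts, so what share of a gene's reads any count holds is not known. Ltb4r2 had 14 counts over the 12 libraries labelled Ltb4r2-/-, in 5 of them, and 0 in each of the 12 WT libraries, which allows up to 3 counts in a library. Its counts go against the labels at this low level and do not check them, so the groups are named here as the libraries are labelled, and every direction below rests on those labels. Of 10 macrophage markers, 9 reached a mean of 10 counts in some group. Their summed level, in CPM (counts scaled to library size, with trimmed mean of M values, TMM, factors over the 24 libraries), ranged over 558–736 CPM in Ltb4r2-/- M0, 306–455 in Ltb4r2-/- M1 and 254–395 in Ltb4r2-/- M2, against 513–725 in WT M0, 426–582 in WT M1 and 340–431 in WT M2. Markers of B cells, T and NK cells, stromal cells and neutrophils all stayed below that mean, with Ly6g, Cd3e, Ncr1, Pax5 and Dcn at 0 in all libraries. Of 4 erythroid markers 1 reached it, with Hba-a1 and Hbb-bs at 0. Of 5 dendritic cell markers 2 reached it, with Flt3 and Zbtb46 at 0. Their summed level was 62.8–103 CPM in Ltb4r2-/- M0 and 29.1–49.9 CPM in WT M0, which do not overlap. It was 654–1060 CPM in Ltb4r2-/- M1 and 481–804 CPM in WT M1. In M2 it was 72.7–132 CPM in Ltb4r2-/- and 62.0–102 CPM in WT, so it was far higher in M1 than in M0 or M2 in both genotypes. The summed level of 7 M1 markers was 1390–1770 CPM in Ltb4r2-/- M1 and 1420–1810 CPM in WT M1, and at most 39.7 CPM in any M0 or M2 library. That of 6 M2 markers was 1830–3520 CPM over the M0 and M2 libraries and 10.2–35.5 CPM over the M1 libraries, so it did not set M2 apart from M0. The part of these markers in the values below was not tested, and in bulk RNA fewer cells of a type and less RNA per cell cannot be told apart.

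Tep1 was lower in the libraries labelled Ltb4r2-/- than in WT in all 3 states, and by most in M0. In M0 it was at 351, 392, 298 and 325 CPM in Ltb4r2-/- and 2116, 2084, 1972 and 2205 CPM in WT. The means were 342 ± 40.3 CPM in Ltb4r2-/- and 2094 ± 96.4 CPM in WT (SD, n = 4 each), 6.13 times as high in WT, and no library of one genotype came near the other. In M1 the levels were 280, 269, 281 and 373 CPM in Ltb4r2-/- and 621, 718, 650 and 742 CPM in WT, and in M2 they were 382, 438, 362 and 357 CPM in Ltb4r2-/- and 662, 757, 993 and 833 CPM in WT. Ltb4r2-/- libraries thus lay between 269 and 438 CPM whatever their state, whereas WT libraries were highest in M0. The log2 fold change of Ltb4r2-/- over WT was -2.63 (SE 0.09) in M0, -1.17 (SE 0.13) in M1 and -1.07 (SE 0.13) in M2. These values rest on 116 to 263 Tep1 counts in an Ltb4r2-/- library and 255 to 1350 in a WT library.

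Parp2 went the other way, with higher levels in Ltb4r2-/- in M1 and M2. In M2 it was at 154, 145, 244 and 168 CPM in Ltb4r2-/- and 41.4, 46.6, 20.7 and 28.6 CPM in WT, which are 71 to 115 counts and 13 to 24 counts a library. The lowest Ltb4r2-/- library was over the highest WT library by a wide margin, and the log2 fold change was 2.39 (SE 0.27). In M1 it was at 19.3, 35.5, 36.6 and 19.6 CPM in Ltb4r2-/-, against 0, 0, 0 and 4.77 CPM in WT. The 4 Ltb4r2-/- M1 libraries held 47 Parp2 counts and the 4 WT M1 libraries held 2, both of them in replicate 4, a ratio of 26.2 after scaling to library size with an exact 95% interval of 6.85 to 222 that covers counting error only. The interval leaves out the spread between libraries and is no test, since Parp2 was chosen for its genotype differences. Too few counts left Parp2 out of the M1 fit. In M0 the groups overlapped, at 25.4, 40.3, 39.8 and 30.0 CPM in Ltb4r2-/- and 6.27, 34.6, 22.7 and 17.4 CPM in WT, with a log2 fold change of 0.75 (SE 0.41).

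Apex1 differed least between the genotypes. In M1 it was at 106, 109, 103 and 98.1 CPM in Ltb4r2-/- and 151, 192, 153 and 186 CPM in WT, so that every Ltb4r2-/- library was below every WT library, with a log2 fold change of -0.70 (SE 0.18). In M0 the levels were 221, 233, 159 and 168 CPM in Ltb4r2-/- and 252, 251, 258 and 222 CPM in WT. In M2 they were 285, 255, 322 and 308 CPM in Ltb4r2-/- and 386, 306, 460 and 296 CPM in WT. The groups overlapped in both of these states, with log2 fold changes of -0.35 (SE 0.14) in M0 and -0.30 (SE 0.15) in M2. The exons of Apex1 share 877 bp, 61.7% of their length, with those of Tmem55b on the opposite strand (50926161 to 50927139), and with the strand setting not given, reads of the pair cannot be told apart there. Over the 24 libraries Apex1 had 3045 counts and Tmem55b 305. The exons of Tep1 share 144 bp, 1.51% of their length, with Gm26782 (50870413 to 50870556), which was not matched in the count table, and those of Parp2 share none with another strand.

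**Figure D1:**
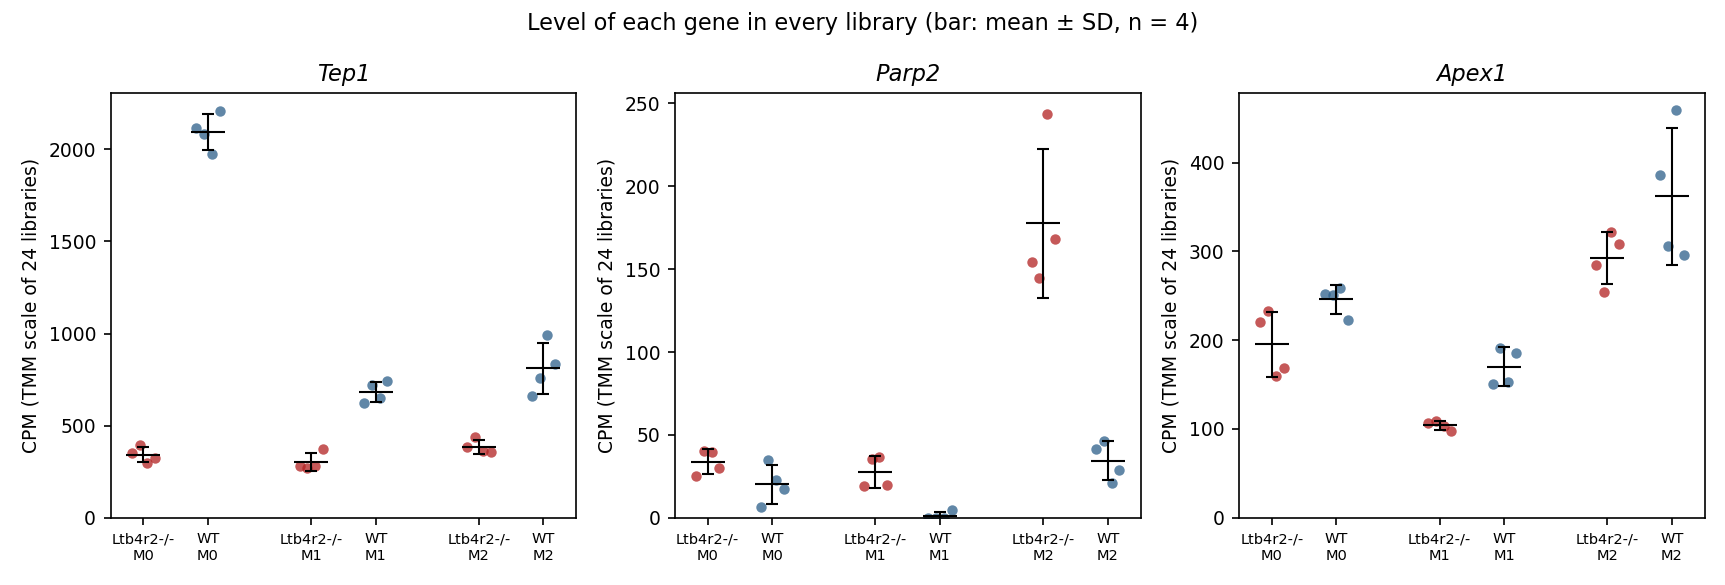
Level of Tep1, Parp2 and Apex1 in CPM on the TMM scale (y axes, linear from 0) in each of the 24 libraries, with Ltb4r2-/- in red beside WT in blue for M0, M1 and M2; points are libraries and bars are the mean ± SD (n = 4). The 4 WT M0 libraries stand alone for Tep1 at 1972 to 2205 CPM and the 4 Ltb4r2-/- M2 libraries for Parp2 at 145 to 244 CPM.

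Every library of one genotype lay on one side of the other for 1 of the 3 genes in M0 (Tep1), for all 3 in M1 and for Tep1 and Parp2 in M2. Over all genes tested the same held for 3.55% in M0, 3.67% in M1 and 2.18% in M2. Since the genes were chosen on this contrast, nothing is read from those counts. All 3 genes passed the filter on low counts in M0 and M2, and Tep1 and Apex1 did in M1.

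Ordered by mean level, Tep1 ran from WT M0 (2094 ± 96.4 CPM) through WT M2 (811 ± 140), WT M1 (683 ± 56.8), Ltb4r2-/- M2 (385 ± 37.1) and Ltb4r2-/- M0 (342 ± 40.3) to Ltb4r2-/- M1 (301 ± 48.3). The libraries of WT M2 and WT M1 overlapped, as did those of neighbouring Ltb4r2-/- states. Parp2 ran from Ltb4r2-/- M2 (178 ± 45.1 CPM) through WT M2 (34.3 ± 11.8), Ltb4r2-/- M0 (33.9 ± 7.39), Ltb4r2-/- M1 (27.8 ± 9.58) and WT M0 (20.2 ± 11.8) to WT M1 (1.19 ± 2.39). The middle 4 of these groups overlapped with their neighbours, and the first and the last stood apart. Apex1 ran from WT M2 (362 ± 76.8 CPM) through Ltb4r2-/- M2 (293 ± 29.5), WT M0 (246 ± 16.1), Ltb4r2-/- M0 (195 ± 36.8) and WT M1 (170 ± 21.4) to Ltb4r2-/- M1 (104 ± 4.65). Each Apex1 group overlapped with the next except WT M1 and Ltb4r2-/- M1. Per kilobase of exon the genes changed places with group: Apex1 was at 137 CPM per kb in Ltb4r2-/- M0 and 173 in WT M0, Tep1 at 35.7 and 219, and Parp2 at 9.33 and 5.58. In M2, Parp2 at 49.0 CPM per kb was over Tep1 at 40.2 in Ltb4r2-/-, against 9.46 and 84.8 in WT.

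Tep1 and Parp2 are neighbours that differed in opposite directions, so their ratio within a library, into which no scaling enters, was also taken. Tep1 counts per Parp2 count were 13.8, 9.74, 7.48 and 10.9 in Ltb4r2-/- M0 and 338, 60.3, 87.0 and 127 in WT M0. In M2 they were 2.48, 3.03, 1.49 and 2.12 in Ltb4r2-/- and 16.0, 16.3, 48.0 and 29.1 in WT. In M1 they were 14.5, 7.56, 7.69 and 19.0 in Ltb4r2-/-, and in WT the ratio could be formed only in replicate 4, at 156. Ltb4r2-/- and WT did not overlap in M0 or in M2. Both genes were chosen for their genotype differences, so nothing is read from this. In M0 the Parp2 levels alone overlapped between the genotypes.

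**Figure D2:**
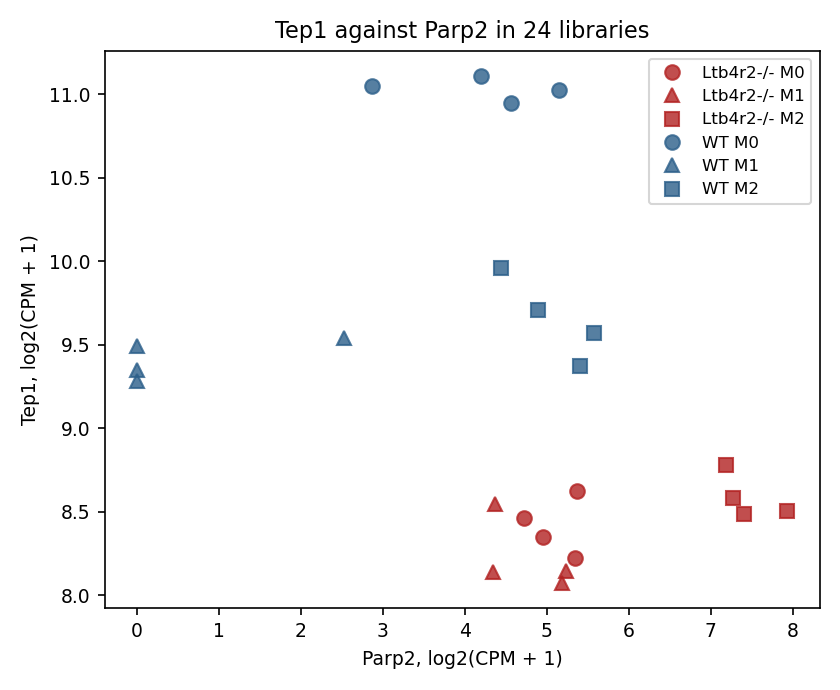
Tep1 (y axis, which does not start at 0) against Parp2 (x axis), both as log2(CPM + 1), in the 24 libraries; red marks Ltb4r2-/- and blue WT, with circles for M0, triangles for M1 and squares for M2. The 12 Ltb4r2-/- libraries lie below the 12 WT libraries on the Tep1 axis, and 3 WT M1 libraries sit at 0 on the Parp2 axis.

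The genotype difference was not of one size across the states. For Tep1 the log2 fold change of Ltb4r2-/- over WT was 1.43 (SE 0.18) higher in M1 than in M0 and 1.54 (SE 0.17) higher in M2 than in M0, which is to say less negative, and M1 minus M2 was -0.11 (SE 0.18). For Parp2 it was 1.61 (SE 0.52) higher in M2 than in M0. The Parp2 values that involve M1, 3.66 (SE 0.88) for M1 minus M0 and 2.05 (SE 0.89) for M1 minus M2, rest on the 2 counts of WT M1. For Apex1 the differences were -0.37 (SE 0.23), 0.03 (SE 0.21) and -0.40 (SE 0.22) for M1 minus M0, M2 minus M0 and M1 minus M2. These are made of the differences that chose the genes and were not tested.

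Polarization was compared within each genotype in a fit of all 24 libraries, in which 3047 genes passed the filter on low counts, the 3 genes among them. The libraries are those whose genotype differences chose the genes, so the p-values below are not independent of that choice. Where libraries of 2 states are said not to overlap, the share of all genes that separate in this way was not counted. Nothing is read from such separation. In WT macrophages Tep1 fell in both polarized states. It averaged 683 ± 56.8 CPM in WT M1 and 2094 ± 96.4 CPM in WT M0, a log2 fold change of -1.62 (SE 0.12, edgeR adjusted p = 2.43e-13), and 811 ± 140 CPM in WT M2, a log2 fold change over WT M0 of -1.37 (SE 0.12, edgeR adjusted p = 9.19e-11). No M1 or M2 library of WT reached the lowest WT M0 library. In Ltb4r2-/- macrophages the M1 over M0 value was -0.19 (SE 0.13, edgeR adjusted p = 0.211) and the M2 over M0 value 0.17 (SE 0.13, edgeR adjusted p = 0.314), and the libraries overlapped. M1 over M2 was -0.37 (SE 0.13, edgeR adjusted p = 0.0166) in Ltb4r2-/- and -0.25 (SE 0.12, edgeR adjusted p = 0.0778) in WT. With total count as the only scaling the Ltb4r2-/- value for M1 over M0 was -0.79 and passed the test (edgeR adjusted p = 5.39e-06), where the median of all genes moved by -0.60, and without Ltb4r2-/- M1 replicate 4 it was -0.34 (edgeR adjusted p = 0.0376).

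Parp2 rose with IL-4 in the libraries labelled Ltb4r2-/-. It averaged 178 ± 45.1 CPM in Ltb4r2-/- M2 and 33.9 ± 7.39 CPM in Ltb4r2-/- M0, a log2 fold change of 2.37 (SE 0.33, edgeR adjusted p = 7.93e-07), and all 4 M2 libraries were over all 4 M0 libraries. In WT the same comparison was 34.3 ± 11.8 and 20.2 ± 11.8 CPM, with a log2 fold change of 0.76 (SE 0.39, edgeR adjusted p = 0.164). M1 over M0 was -0.28 (SE 0.39, edgeR adjusted p = 0.565) in Ltb4r2-/-. In WT M1 it fell close to the limit of detection, with 2 counts over 4 libraries against 47 in WT M0. The WT M0 rate was 18.3 times that of WT M1 with an exact 95% interval of 4.80 to 156, and the fitted log2 fold change of WT M1 over M0 was -3.94 (SE 0.74, edgeR adjusted p = 3.33e-05). Without WT M1 replicate 4, which held both counts, that fitted value was -6.48, so its size is not a measured one. Parp2 was also lower in M1 than in M2, by a log2 fold change of -2.66 (SE 0.36, edgeR adjusted p = 1.3e-07) in Ltb4r2-/- and -4.70 (SE 0.69, edgeR adjusted p = 5.52e-07) in WT, the second from 2 counts in WT M1 and 74 in WT M2 and -7.23 without WT M1 replicate 4.

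Apex1 moved the same way in both genotypes, down in M1 and up in M2. M1 over M0 was -0.91 (SE 0.16, edgeR adjusted p = 1.92e-05) in Ltb4r2-/-, with means of 104 ± 4.65 and 195 ± 36.8 CPM. In WT it was -0.53 (SE 0.15, edgeR adjusted p = 0.00402), with means of 170 ± 21.4 and 246 ± 16.1 CPM. M2 over M0 was 0.59 (SE 0.15, edgeR adjusted p = 0.00196) in Ltb4r2-/- and 0.56 (SE 0.15, edgeR adjusted p = 0.0037) in WT, and the WT call was lost with no filter on low counts (edgeR adjusted p = 0.0666). M1 over M2 was -1.50 (SE 0.16, edgeR adjusted p = 1.51e-09) in Ltb4r2-/- and -1.09 (SE 0.15, edgeR adjusted p = 2.36e-07) in WT. In each of these 6 comparisons the libraries of the 2 states did not overlap, but the share of all genes that do so was not counted. Total count as the only scaling made the M1 over M0 values more negative, at -1.51 in Ltb4r2-/- and -1.15 in WT. Tmem55b, whose exons overlap those of Apex1, was at 60.9 ± 21.1 CPM in Ltb4r2-/- M2 and 3.78 ± 2.28 CPM in Ltb4r2-/- M0, and at 47.5 ± 16.8 CPM in WT M2 and 10.8 ± 5.40 CPM in WT M0. Its part in the Apex1 values was not tested.

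**Figure D3:**
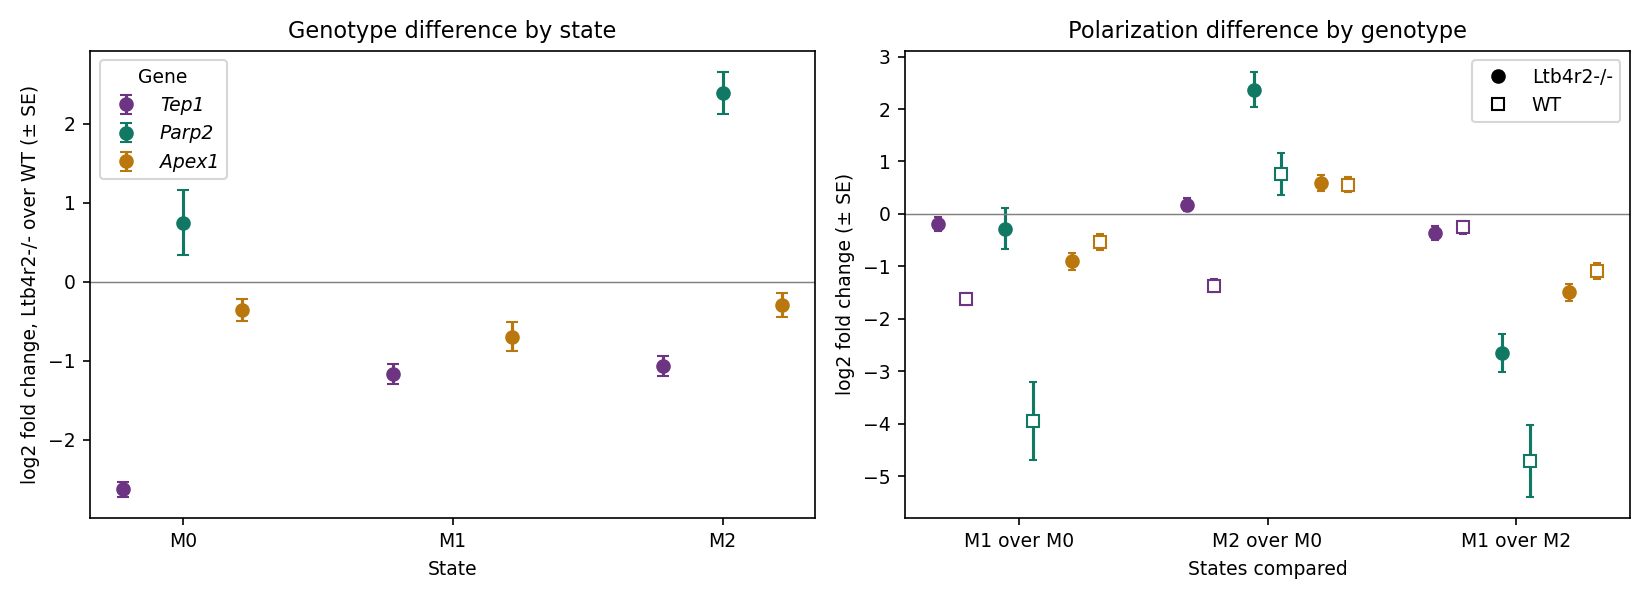
Left, log2 fold change of Ltb4r2-/- over WT (± SE) in M0, M1 and M2 for Tep1, Parp2 and Apex1, with no Parp2 point in M1, where it was not fitted. Right, log2 fold change (± SE) between states within Ltb4r2-/- (filled circles) and WT (open squares), in the same colours; Tep1 in WT is at -1.62 (M1 over M0) and -1.37 (M2 over M0) while its Ltb4r2-/- points lie near 0, and the Parp2 points of WT M1 rest on 2 counts.

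Among the 3 genes, M1 over M0 in Ltb4r2-/- had 0 that rose and 1 that fell, against 27.1% and 25.7% of all genes tested, and M1 over M0 in WT had 0 that rose and 3 that fell, against 26.9% and 24.3%. M2 over M0 in Ltb4r2-/- had 2 that rose and 0 that fell, against 16.9% and 15.0%, and in WT it had 1 that rose and 1 that fell, against 15.2% and 11.8%. M1 over M2 had 0 that rose in either genotype, 3 that fell in Ltb4r2-/- and 2 that fell in WT, against 26.4% rising and 26.5% falling in Ltb4r2-/- and 26.2% rising and 26.3% falling in WT. Calls in either direction were thus common over all genes, and most so in M1.

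Most genes around the 3 had few or no counts in these libraries, which does not show that they were not expressed. Within 250 kb of the span from Parp2 to Apex1, GENCODE annotates 38 other genes, 25 were found in the count table, 14 of these had 0 counts over all libraries and 2 had 50 counts or more. Those were Tmem55b, a lysosomal phosphoinositide phosphatase, with 305 counts, and Pnp, a purine salvage enzyme, with 100. Osgep, which abuts Apex1, had 31 counts, and Rpph1 and Ccnb1ip1, which abut Parp2, had 0. Neither neighbour that could be tested between the genotypes passed: Tmem55b in M2 had a log2 fold change of 0.37 (SE 0.33, edgeR adjusted p = 0.999) and Pnp in M1 of -0.91 (SE 0.46, edgeR adjusted p = 0.642), where 0.190% and 0.0509% of all genes tested passed in those states. Pnp was at 15.8 ± 8.86 CPM in Ltb4r2-/- M1 and 29.7 ± 6.97 CPM in WT M1, with the groups at 3 to 11 and 10 to 22 counts a library. By state, Tmem55b rose with IL-4 in both genotypes, with a log2 fold change of M2 over M0 of 3.93 (SE 0.49, edgeR adjusted p = 6.47e-08) in Ltb4r2-/- and 2.11 (SE 0.43, edgeR adjusted p = 2.83e-04) in WT. Its counts a library were 1 to 5 in Ltb4r2-/- M0 and 4 to 12 in WT M0. In M2 they were 17 to 54 in Ltb4r2-/- and 16 to 45 in WT. Within a state it passed the filter on low counts only in M2, so this rise was not independent of the filter.

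**Figure D4:**
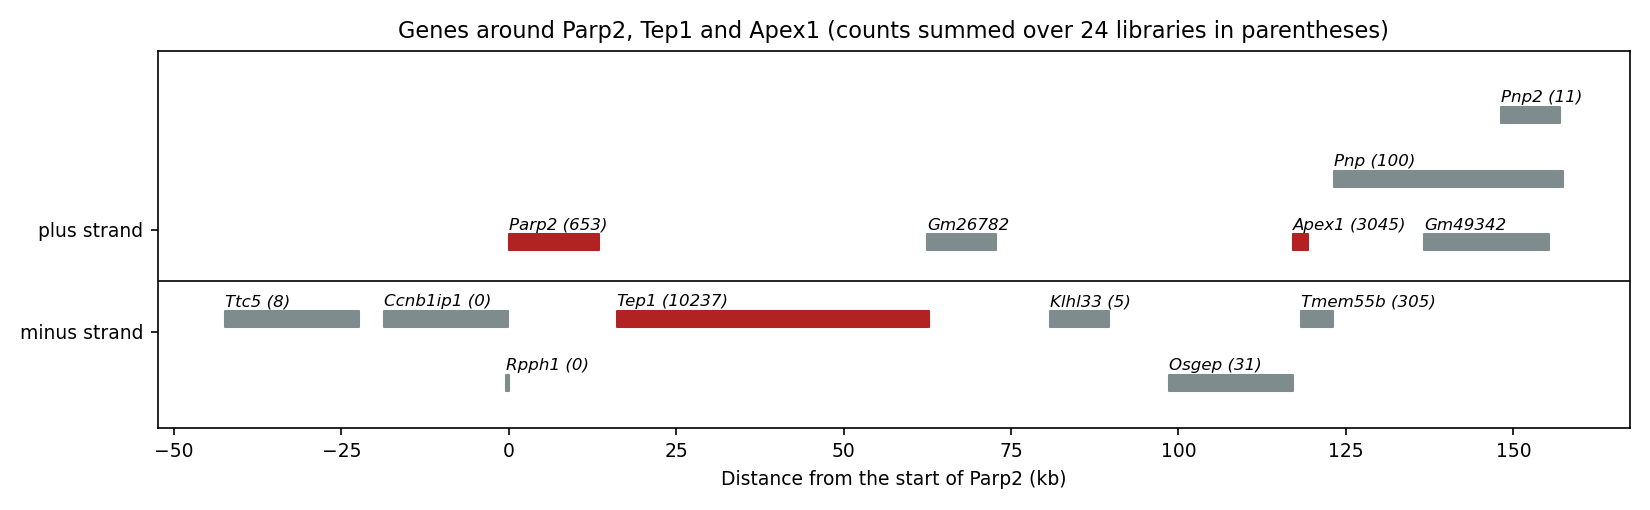
Genes around Parp2, Tep1 and Apex1 drawn to scale by distance from the start of Parp2 (x axis, kb), plus strand above the line and minus strand below; red boxes are the 3 genes, and the number after each name is its count over the 24 libraries, with none for genes not matched in the table. Tep1 has 10237 counts, Apex1 3045 and Parp2 653, and the others shown have at most 305.

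Other genes of the same pathways were followed in lists from textbook membership, without the 3 genes. Most of them had too few counts for the fit. Of 24 base excision repair genes, 5 were tested, of 15 genes of the PARP family 5, of 6 genes that remove ADP-ribose 1, and of 18 telomerase, shelterin and vault genes 4. None of those tested passed between the genotypes in any state (edgeR), where 0.131% of all genes passed in M0, 0.0509% in M1 and 0.190% in M2. In simulated data the test found 60% to 66.7% of 2-fold changes between genotypes. List genes and neighbours that did not pass may therefore still differ. At an unadjusted p under 0.05 there was 1, a base excision repair gene, in M0, 1 of the PARP family in M1 and 0 in M2, against 5.91%, 7.49% and 2.99% of all genes tested.

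In M1 the tested members of the PARP family that passed all rose and those of the other lists mostly fell. Over all genes, 27.1% rose and 25.7% fell in M1 over M0 in Ltb4r2-/-, and 26.9% and 24.3% in WT. For M2 over M0 the shares were 16.9% and 15.0% in Ltb4r2-/- and 15.2% and 11.8% in WT. For M1 over M2 they were 26.4% and 26.5% in Ltb4r2-/- and 26.2% and 26.3% in WT. With so few genes tested in a list, its counts are a description only. Within a state, Parp14 and Parp6 passed the filter on low counts only in M1. Mbd4, Mpg, Macrod1 and Dkc1 passed it only in M0 and M2. The direction of these genes in M1 was therefore not independent of the filter. Of the 5 PARP family genes, 3 rose and 0 fell in M1 over M0 in both genotypes, with a median log2 fold change of 1.89 in Ltb4r2-/- and 2.19 in WT, against 0.00 and -0.02 over all genes. Parp9, which pairs with a ubiquitin ligase in interferon responses, averaged 3247 ± 64.9 CPM in Ltb4r2-/- M1 and 613 ± 35.7 CPM in Ltb4r2-/- M0, a log2 fold change of 2.40, and rose by 2.26 on that scale in WT (edgeR adjusted p = 1.67e-17 and 8.29e-17). Parp14, a mono-ADP-ribosyltransferase, changed by 3.13 in Ltb4r2-/- and 3.52 in WT, and Parp6, of the same class, by 1.89 and 2.19. Zc3hav1, which encodes the antiviral zinc-finger protein ZAP, joined them in M1 over M2, where 4 rose and 0 fell in both genotypes, at 1.69 and 1.91, a call lost with total count as the only scaling (edgeR adjusted p = 0.0884 and 0.0547). In M0, Parp14 averaged 13.8 CPM in Ltb4r2-/- and 10.2 CPM in WT, and Parp6 8.02 and 6.55 CPM. In M1 they averaged 114 and 116 CPM, and 30.9 and 30.5 CPM. Parp2 itself did not rise in M1 in either genotype. In M2 over M0, 0 rose and 1 fell in both, Parp9, at -0.61 in Ltb4r2-/- and -0.66 in WT. The exons of Parp9 overlap those of Dtx3l on the opposite strand by 458 bp.

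Of the 5 base excision repair genes tested, 1 rose and 2 fell in M1 over M0 in both genotypes, with a median of -0.93 in Ltb4r2-/- and 0.25 in WT. Over all genes, 27.1% rose and 25.7% fell in Ltb4r2-/- and 26.9% and 24.3% in WT, so such calls were common. Mbd4, a glycosylase for mismatched thymine and uracil, had the largest change, with 6.58 ± 1.89 CPM in Ltb4r2-/- M1 and 119 ± 27.2 CPM in Ltb4r2-/- M0, a log2 fold change of -4.13 that was -4.22 in WT. Ogg1, the glycosylase for oxidized guanine, changed by -2.03 and -2.36. Lig3, a ligase that seals the repaired strand, changed by 0.69 and 0.82, and with total count as the only scaling by 0.09 and 0.20, no longer past the test. In M2 over M0, 1 rose and 2 fell in Ltb4r2-/- and 2 rose and 2 fell in WT. Mbd4 rose by 1.72 and 1.07, Ogg1 changed by -0.97 and -0.91 and Lig3 by -1.11 and -0.96 in Ltb4r2-/- and WT. Mpg, the glycosylase for alkylated bases, rose by 1.06 in WT (edgeR adjusted p = 0.0467), a call lost under RLE scaling (0.0569), total count (0.0669) and DESeq2 (0.0826). Apex1 thus shared the direction of Mbd4 in both polarized states, and that of Ogg1 only in M1. In M1 over M2, 1 rose in both genotypes, 3 fell in Ltb4r2-/- and 2 fell in WT. The medians were -0.07 in Ltb4r2-/- and 0.66 in WT for M2 over M0 and -1.06 and -0.81 for M1 over M2, against 0 and 0 and -0.03 and -0.02 over all genes. Exons of Lig3, Mpg, Mbd4 and Ogg1 overlap those of a gene on the opposite strand by 1826, 1340, 264 and 232 bp.

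Of the genes that remove ADP-ribose, Macrod1, a mono-ADP-ribose hydrolase, was the only one tested. It fell in M1 over M0, with log2 fold changes of -2.36 in Ltb4r2-/- and -2.19 in WT, did not pass in M2 over M0 (0.12 and -0.67), and fell in M1 over M2 (-2.48 and -1.52). Of the 4 telomerase, shelterin and vault genes tested, 2 fell and 0 rose in M1 over M0 in both genotypes, with a median of -0.56 in Ltb4r2-/- and -0.19 in WT. Over all genes, 25.7% fell and 27.1% rose in Ltb4r2-/- and 24.3% and 26.9% in WT. The list genes that fell were Dkc1, which encodes dyskerin, the pseudouridine synthase of telomerase, at -2.58 and -2.19, and Nhp2, of the same particle, at -0.96 and -0.80. Dkc1 was also the 1 gene that fell in M2 over M0, at -1.94 in Ltb4r2-/- and -1.16 in WT. In M1 over M2, Nhp2 fell in both genotypes, at -1.06 in Ltb4r2-/- and -1.02 in WT, and Dkc1 fell in WT, at -1.04, with 0 of the list rising. Tep1, which is found in the same complex, fell in both polarized states in WT and passed in neither in Ltb4r2-/-. Exons of Dkc1 and Nhp2 overlap those of a gene on the opposite strand by 45 and 44 bp. Those of the other tested genes of that list do so by 1540 and 1208 bp.

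**Figure D5:**
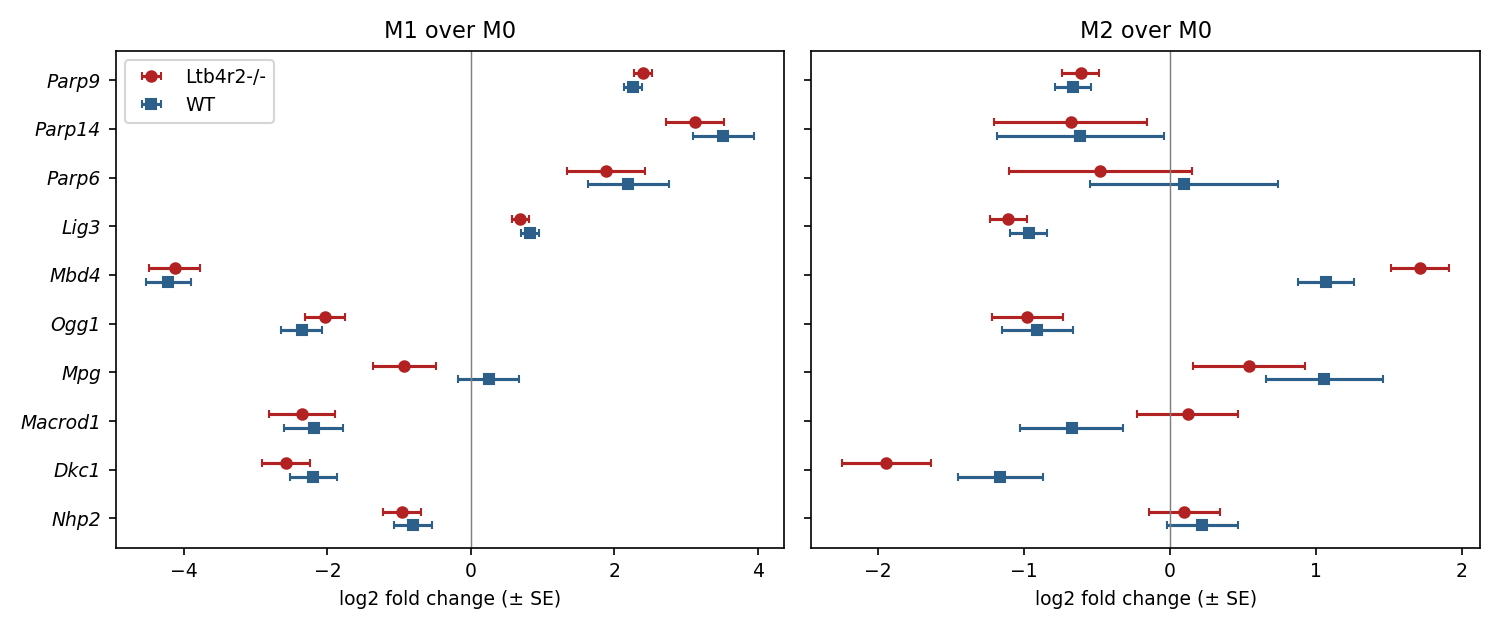
Log2 fold change (± SE) of M1 over M0 (left) and M2 over M0 (right) for the 10 genes of the pathway lists that passed in either comparison, with Ltb4r2-/- as red circles and WT as blue squares. In M1, Parp9, Parp14, Parp6 and Lig3 lie to the right of 0 in both genotypes and Mbd4, Ogg1, Macrod1, Dkc1 and Nhp2 to the left; with total count as the only scaling Lig3 in M1 is at 0.09 and 0.20.

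The genes most alike in pattern were taken as those with the highest Pearson correlation of log2 CPM over the 24 libraries, among 958 to 959 genes whose mean was 50 counts or more. Those of Apex1 were Tiam2 (r = 0.913), a Rac exchange factor, Pyroxd1 (0.899), Rasgrp4 (0.889), Pkmyt1 (0.888), an inhibitory kinase of the cell cycle, and Ercc1 (0.885), a subunit of the nuclease of nucleotide excision repair. For Parp2 they were Rpgrip1 (0.795), Pcif1 (0.791), Atf5 (0.736), Gm10389 (0.736) and Invs (0.730), and for Tep1 BC055324 (0.604), Ypel1 (0.520), Ssh1 (0.516), Fam216a (0.506) and Glb1l (0.491). Tep1 thus had no close match, and its nearest gene, BC055324, averaged 219 CPM in Ltb4r2-/- M0 and 277 CPM in WT M0, a far smaller gap than that of Tep1. Rpgrip1 was the 1 gene of these 15 on chromosome 14, at 52110704 to 52163546, with its start 1.30 Mb from that of Parp2. It averaged 3710 CPM in Ltb4r2-/- M2 and 2993 CPM in WT M2. The libraries share 6 groups and their depth, so these correlations are a description only.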

How the data were processed

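The 24 RNA-seq libraries form 6 groups of 4, with replicates that the study describes as different animals. The deposited counts per gene were made by the authors with cutadapt trimming, STAR alignment to mm10 and HTSeq, and the deposited log2 values are those counts after DESeq2 (RLE) scaling by the authors; these log2 values matched the counts and were set aside. Tool versions and the strand setting are not given in the sources used here.

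Genes were filtered (filterByExpr, minimum count 10, minimum total 15), scaled by TMM and compared with the quasi-likelihood test of edgeR 4.0.16 (R 4.3.3, limma 3.58.1) at a Benjamini-Hochberg adjusted p of 0.05, on the 8 libraries of a state for genotype and on all 24 for polarization. SE is the size of the log2 fold change over the root of its F statistic. The test was checked on simulated data with genes of every depth and, between genotypes, with far more changed genes than passed here. The shares it found may therefore be too high for the real genotype contrasts. Between genotypes it found 28.3% to 36.7% of 1.5-fold changes, 60% to 66.7% of 2-fold changes and 98.1% to 100% of 4-fold changes. For M1 over M0 in WT it found 16.9%, 48.4% and 77.4%. Positions are from GENCODE M21 and promoters from RefSeq.

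The genes and lists were chosen with earlier results of these data known. Named genes are the 3 genes, neighbours with 50 counts or more, up to 4 list genes per contrast past the threshold by smallest p, the 5 most alike genes, opposite-strand partners and Ltb4r2; Osgep, Rpph1 and Ccnb1ip1 were named after their counts were seen. Alternatives were DESeq2 1.42.0, RLE or total-count scaling, no filter or a minimum mean of 50 counts, a single fit of 24 libraries, a block for the replicate number, leaving out each library, other neighbour windows and Spearman's rho. No 2 replicates agreed within sampling noise.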

Additional observations from a re-analysis of the deposited data

Results flagged for a closer look

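Tep1 in Ltb4r2-/- M1 replicate 4 was at 373 CPM (133 counts), where the other 3 libraries of the group were at 269 to 281 CPM, so that the gap took up 0.878 of the range of the group. Parp2 in WT M1 replicate 4 was at 4.77 CPM from 2 counts, where the other 3 libraries were at 0. A gap was singled out when it exceeded 0.829 of the range among 4 libraries, in 30 groups of values, and chance does so in about 1 in 20 groups of normally distributed values. That rate does not apply to Parp2 in WT M1. With the other 3 libraries at 0, any count in the last makes the gap the full range. The first library decides whether Tep1 passed in M1 over M0 in Ltb4r2-/-, and the second sets the fitted Parp2 fold changes of WT M1, as given with those values above.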

How the results depend on the processing

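All 122 alternatives for the genotype values of the 3 genes kept their direction, as did the 263 for polarization, of which 255 kept their call. The calls that changed were those of Tep1 and Apex1. Tep1 in Ltb4r2-/- M1 over M0 was -0.79 with total count only, and leaving out single libraries gave -0.34 to -0.15. Tep1 in WT M1 over M2 passed at -0.82 with total count only, -0.38 with no filter and -0.27 with a mean of at least 50 counts, and leaving out single libraries gave -0.39 to -0.16, with a pass without WT M1 replicate 4 (-0.32) or WT M2 replicate 1 (-0.39). Apex1 in WT M2 over M0 was 0.52 with no filter. Total count only moved the median of all genes by -0.60 in Ltb4r2-/- and -0.62 in WT for M1 over M0 and by -0.56 in both for M1 over M2, and relative to that shift both Tep1 values were close to those reported. The cause of the other changes was not tested. Without single libraries, Tep1 in M0 stayed at -2.69 to -2.57 for Ltb4r2-/- over WT.

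With a mean of at least 50 counts fewer list genes are tested: the genes past the test were 2 of base excision repair for Ltb4r2-/- M1 over M2 and WT M2 over M0, 1 of the PARP family for M1 over M0 and M1 over M2 in both genotypes, 0 for ADP-ribose removal in M1 over M0 and M1 over M2, and 0 for telomerase and vault in every polarization contrast. Under DESeq2 the last list had 2 in Ltb4r2-/- M1 over M2. With Spearman's rho, 2, 2 and 1 of the 5 most alike genes of Tep1, Parp2 and Apex1 remained. With a mean of at least 50 counts Parp2 was fitted only between genotypes in M2, at 2.39. Between genotypes in M1 it was fitted with no filter (4.36), in the single fit of 24 libraries (4.42) and by DESeq2 (4.68), each resting on the 2 counts of WT M1.

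The replicate numbers were not taken as pairs, since no contrast had a correlation over 0.1 in all 4 pairs (at most 3, for M2 over M0 in Ltb4r2-/-) and no source used here says that a number marks an animal across states. As a hint from the data only, libraries correlated best with their own number in 16 of 36 cases, where 9 come about with no pairing, and within genotypes in 14 of 24, where 6 do, among them all 4 in WT M1 over M0. With the number as a block no call of the 3 genes changed (Tep1 in M0 -2.63, Parp2 in M2 2.38, Apex1 in M1 -0.69 for Ltb4r2-/- over WT), and 1576 genes passed for M1 over M0 in Ltb4r2-/- against 1610 without it. At this depth a gene with few counts, such as Parp2 in WT M1, is measured only within wide limits.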
